A study of Homo sapiens with 8 samples.

Results

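The H3K36me3 peak list of SETD2-knockdown HepG2 cells held 2724 peaks that lay far from anything called in the control cells. They were chosen by their position relative to the control calls. A knockdown peak was taken when its nearest edge was more than 10 kb from every listed control peak on its chromosome. They made up 11.6% of the 23488 knockdown peaks (exact Clopper-Pearson 95% interval 11.19 to 12.01%) and 68.3% of the 3991 that overlapped no control peak. They are called distant peaks here. The other knockdown peaks formed the sets used for comparison: 1267 adjacent peaks, which overlapped no control peak but lay within 10 kb of one, and 19497 peaks that overlapped a control peak.

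Trimethylation of lysine 36 of histone H3 is laid down behind elongating RNA polymerase II, so it marks the bodies of transcribed genes and usually becomes denser towards their 3′ ends. SETD2 is the main enzyme in human cells that adds the third methyl group. Related enzymes of the NSD family add the lower methylation states. In liver cells the genes for plasma proteins are among the most strongly transcribed.

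HepG2 is a human liver cancer line. The libraries came from HepG2 cells stably carrying either an shRNA against SETD2 (shSETD2, the knockdown) or a non-specific control shRNA (shCtrl, the control), delivered by lentivirus and followed by puromycin selection in both. The study had 8 libraries in 4 groups of 2: H3K36me3 immunoprecipitate and input DNA from the knockdown, and the same from the control. The authors pooled both replicates before calling peaks, so each condition had 1 peak list and every value below is 1 value per condition, with no spread between replicates. After duplicate removal the pooled immunoprecipitates held 67053273 tags in the knockdown and 47880817 in the control. The inputs held 69095038 and 67158956 tags. SETD2 itself was not measured in these lists.

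Because the distant peaks were selected on the calls of both lists, nothing about how they differ from the other knockdown peaks was tested, and the values below describe them. A missing control peak means that the authors' caller listed none. The number of control tags under the distant peaks is not analysed here, so no fold change between the conditions can be given for any of them.

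Most distant peaks were weakly enriched. Their median fold enrichment over the input background, the authors' own value per peak, was 3.54 (exact binomial rank 95% interval 3.50 to 3.56, quartiles 3.07 and 4.16). It was 3.42 (3.38 to 3.49) for the adjacent peaks and 3.78 (3.76 to 3.81) for the peaks on control peaks. The 3 distributions overlapped over most of their range. The distant peaks were thus placed between the other sets at the median, and nearer to the adjacent peaks. Their median width was 3.17 kb (quartiles 2.00 and 5.81 kb), against 2.93 kb for adjacent peaks and 3.31 kb for peaks on control peaks.

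Tag density, in tags per kb per 1000000 filtered tags, gave the same order. The median distant peak held 0.879 (0.869 to 0.886), the median adjacent peak 0.856 (0.845 to 0.868) and the median peak on a control peak 0.915 (0.912 to 0.918). Outside all its peaks the knockdown immunoprecipitate held 0.337 over the rest of the effective genome, so the median distant peak was 2.61 times as dense as the unpeaked genome. In the control list 17.4% of peaks had a tag density below that of the median distant peak. The control list thus held peaks of that density or lower, but this does not compare how readily the 2 lists called them. Density is scaled to all filtered tags, and peaks held 12.8% of these for the knockdown against 42.0% for the control. An equal density therefore need not be an equal excess over the unpeaked genome, whose density is given here for the knockdown only. Together the distant peaks covered 12.3 Mb and held 851809 tags, or 1.27% of the knockdown immunoprecipitate.

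**Figure D1:**
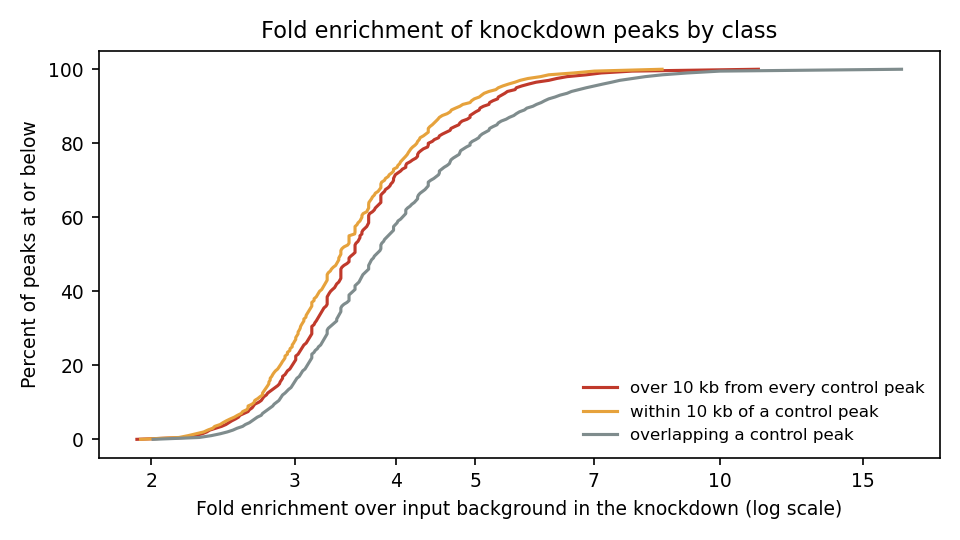
Cumulative share of knockdown peaks (y axis, percent) by fold enrichment over input background (x axis, log scale), for distant peaks (red), adjacent peaks (orange) and peaks that overlap a control peak (grey). The medians are 3.54, 3.42 and 3.78, and the grey curve reaches higher folds, up to 16.72 against 11.15 for the distant peaks.

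Few distant peaks passed a strict limit. The caller's false discovery rate (FDR), estimated by swapping immunoprecipitate and input, was 5% or less for 53 of the 2724 (1.95%, 1.46 to 2.54%), for 19 of the 1267 adjacent peaks (1.50%, 0.905 to 2.33%) and for 5.30% of all knockdown peaks. The intervals of the distant and adjacent shares overlapped. The median FDR was 74.8% for distant peaks (quartiles 46.8 and 85.1%), 77.8% for adjacent peaks and 68.9% for all knockdown peaks. In the control list the median FDR was 4.86%, and 50.5% of peaks had an FDR of 5% or less. A fold enrichment of 5 or more was reached by 317 distant peaks (11.6%, 10.5 to 12.9%), by 100 adjacent peaks (7.89%, 6.47 to 9.52%) and by 17.6% of the whole list. Ranking the knockdown list by fold enrichment put 3 distant peaks in the top 100 and 37 in the top 1000. Both counts are below the 11.6% that distant peaks made up of the whole list. Membership was fixed by position relative to the control calls, and these shares belong to the list that position was taken from.

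The median distance from a distant peak to the nearest control peak was 31.7 kb, with quartiles of 18.5 and 75.8 kb and a largest value of 6377 kb. Between 10 and 20 kb lay 779 distant peaks, and 998 lay between 20 and 50 kb. A further 408 lay between 50 and 100 kb, 428 between 100 and 500 kb, 90 between 500 and 1000 kb, and 21 beyond that. The median fold enrichment stayed between 3.50 and 3.67 across these 6 ranges of distance. Width and density did not stay level. The median width was 3.56 kb at 10 to 20 kb, 2.41 kb at 100 to 500 kb and 1.73 kb beyond 1000 kb, and the median density was 0.891, 0.801 and 0.787 in the same ranges.

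The limit of 10 kb cut through a continuous distribution, and the number of members depended on it. With a limit of 50 kb the distant share was 4.03%. It was 20.7% when only control peaks with an FDR of 5% or less counted as neighbours, 4.26% among the 1244 knockdown peaks with that FDR, and 7.67% among those enriched at least 5-fold. The 5 distant peaks closest to it lay 10006 to 10054 bp from a control peak, with fold enrichments of 2.90 to 7.01 and tag densities of 0.878 to 1.59. The 5 adjacent peaks closest to it lay 9920 to 9995 bp away, with fold enrichments of 2.85 to 7.36 and densities of 0.651 to 1.25. Peaks of very different strength stood on both sides.

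**Figure D2:**
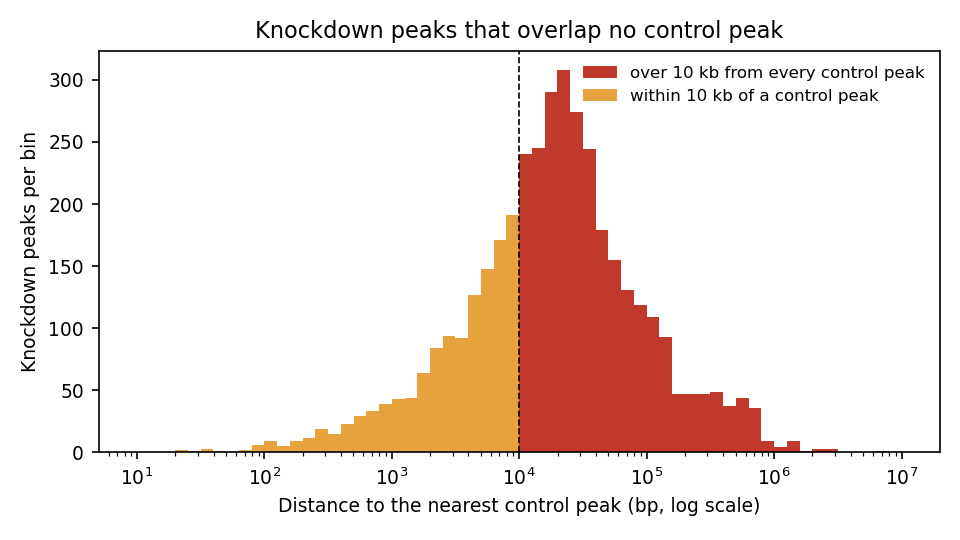
Number of knockdown peaks without an overlapping control peak (y axis) by distance to the nearest control peak in bp (x axis, log scale, 10 bins per factor of 10), with distant peaks in red, adjacent peaks in orange and a dashed line at 10 kb. The counts pass through the limit without a gap, and most distant peaks lie under 100 kb from a control peak.

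The strongest distant peaks were wide and lay at very different distances from the control peaks. Peaks are given here by their position on hg19. No gene annotation on that build was used, so no peak is assigned to a gene. Among distant peaks within the 5% FDR, fold enrichment was highest for a peak on chromosome 10 from 5823517 to 5843460. It was 19.9 kb wide with 2305 tags, a tag density of 1.72 (Poisson 95% interval 1.65 to 1.80), a fold enrichment of 11.15 and an FDR of 2.31%. By fold enrichment it ranked 42 in the whole knockdown list, and the nearest control peak was 67.6 kb away.

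The next was on chromosome 1 from 66820770 to 66839792. Its fold enrichment was 10.27, its density 1.40 (1.34 to 1.47) and its FDR 2.44%. The nearest control peak was 566 kb away, a far longer distance than for the first. The third was on chromosome 11 from 3694099 to 3710050. It had a fold enrichment of 10.1, a density of 1.61 (1.53 to 1.68) and an FDR of 0%, and the nearest control peak was 136 kb away. The 3 were also the highest of all distant peaks when the FDR was not considered.

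Below these the fold enrichments came close together. A peak on chromosome 11 from 118346829 to 118356043 had a fold enrichment of 8.37, and one on chromosome 1 from 228429833 to 228436580 had 8.35. A peak on chromosome 13 from 103315452 to 103323767 had 7.96 and the highest score of all distant peaks, 2014.05. The score is minus 10 times the log10 of the caller's p-value for the peak. The tag densities of these 3 peaks were 1.10, 1.33 and 1.40, so their order by density was not their order by fold enrichment.

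Of the remaining peaks chosen by this rule, 3 lay 14.1 to 17.1 kb from a control peak. They were on chromosome 3 from 58061813 to 58068727 (fold enrichment 7.83), on chromosome 5 from 14372748 to 14384725 (7.82) and on chromosome 5 from 41828610 to 41834768 (7.67). The last place was shared at a fold enrichment of 7.26 by a peak on chromosome 13 from 20343709 to 20348820 and by one on chromosome 22 from 24477826 to 24484345. The nearest control peaks were 48.8 and 48.9 kb away.

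The 53 distant peaks within the 5% FDR were spread over 17 chromosomes and covered 503 kb. They were 5.11 to 19.9 kb wide with a median of 9.11 kb, and their fold enrichments ran from 4.33 to 11.15 with a median of 5.99. Their distances to the nearest control peak ran from 10.97 to 566 kb, and 8 lay more than 100 kb away. This grouping was made after the values were seen. Of these 8, 4 are described above. The other 4 include a peak at bases 17272267 to 17279755 of chromosome 10, next in distance at 355 kb, with a fold enrichment of 6.85, a density of 1.41 (1.31 to 1.52) and an FDR of 0%. A pair on chromosome 6 lay side by side, from 10397063 to 10404068 (fold enrichment 6.30) and from 10404948 to 10412702 (5.38). The last, at bases 47080506 to 47091400 of chromosome 10, was enriched 6.20-fold.

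Many distant peaks lay close to other distant peaks. With distant peaks chained whenever at most 50 kb separated them, the 2724 peaks formed 1026 clusters, of which 489 were single peaks, 382 held 2 to 4 peaks and 155 held 5 or more. Another distant peak lay within 50 kb of 82.0% of them (80.6 to 83.5%), and within 10 kb of 71.3%. These shares count every listed peak, including peaks that nearly touch a neighbour. After peaks within 3 kb were merged, 1524 distant peaks remained in place of 2724. The shares were not computed after merging. How many neighbouring distant peaks are pieces of the same enriched region was therefore not tested. Of the 53 that met the 5% FDR, 15.1% had another such peak within 50 kb. Among adjacent peaks, 62.3% (59.5 to 65.0%) had another adjacent peak within 50 kb. The sets differ in size, so these shares are given side by side and not compared. No such share was computed for all knockdown peaks or for those on control peaks. Whether grouping is particular to distant peaks was therefore not tested. Clusters of 5 or more held 44.2% of the distant peaks and 43.3% of their covered length. The 10 clusters with the largest covered length held 7.98% of it. Peaks that were alone had a median width of 2.35 kb and a median fold enrichment of 3.37, and 8 of the 489 had an FDR of 5% or less. Peaks in clusters of 5 or more had medians of 3.19 kb and 3.61, and 25 of 1203 met that FDR.

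The largest cluster lay in a long stretch without control peaks on both sides. It ran on chromosome 1 from 66367434 to 66850075 with 39 peaks over a span of 483 kb, of which 174 kb (36.1%) was covered. No control peak lay inside it, and the control list was empty for 468 kb on one side and 556 kb on the other. Peaks in the part with higher coordinates covered more and were denser: 22 peaks covered 139 kb there at a density of 1.01 (0.993 to 1.03) and a median fold enrichment of 4.11. The 17 peaks of the part with lower coordinates covered 35.8 kb at a density of 0.778 (0.743 to 0.814) and a median fold enrichment of 3.70. The parts were split at the midpoint of the span. Their density intervals did not overlap, but these cover counting error only, and the difference was not tested. The fold enrichments ran from 2.60 to 10.27, and 1 of the 39 peaks had an FDR of 5% or less.

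The cluster with the third largest covered length was also sparse. It ran on chromosome 5 from 58155171 to 58416642, with 25 peaks covering 113 kb (43.2%) of a span of 261 kb. It held 1 control peak, which lay more than 10 kb from each member, and 2 knockdown peaks that were not distant. Outside the cluster the nearest control peaks were 400.2 and 1299 kb away. Its tag density was 0.915 (0.894 to 0.937), and its fold enrichments ran from 2.60 to 6.03. Here the part with lower coordinates was the denser one, at 0.943 (0.917 to 0.971) against 0.863 (0.827 to 0.899) in the part with higher coordinates. The difference was not tested either.

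The other 3 of the 5 largest clusters were nearly continuous and had a control peak close to at least one end. On chromosome 6 from 90359496 to 90512278, 18 peaks covered 132 kb or 86.6% of the span at a density of 1.03 (1.01 to 1.05). Control peaks stood 11.9 and 28.4 kb from its ends. On chromosome 7 from 98478068 to 98605110, 14 peaks covered 108 kb (84.7%) at a density of 1.10 (1.08 to 1.12). A control peak stood 11.8 kb from one end, and the nearest on the other side was 461 kb away. On chromosome 12 from 101675132 to 101769932, 14 peaks covered 87.2 kb (92.0%) at a density of 1.02 (0.993 to 1.04), with a control peak 15.5 kb from one end and the next 666 kb from the other. No control peak lay inside any of these 3 clusters. Their density intervals lay above that of the cluster on chromosome 5. These intervals cover counting error only, and the difference was not tested.

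**Figure D3:**
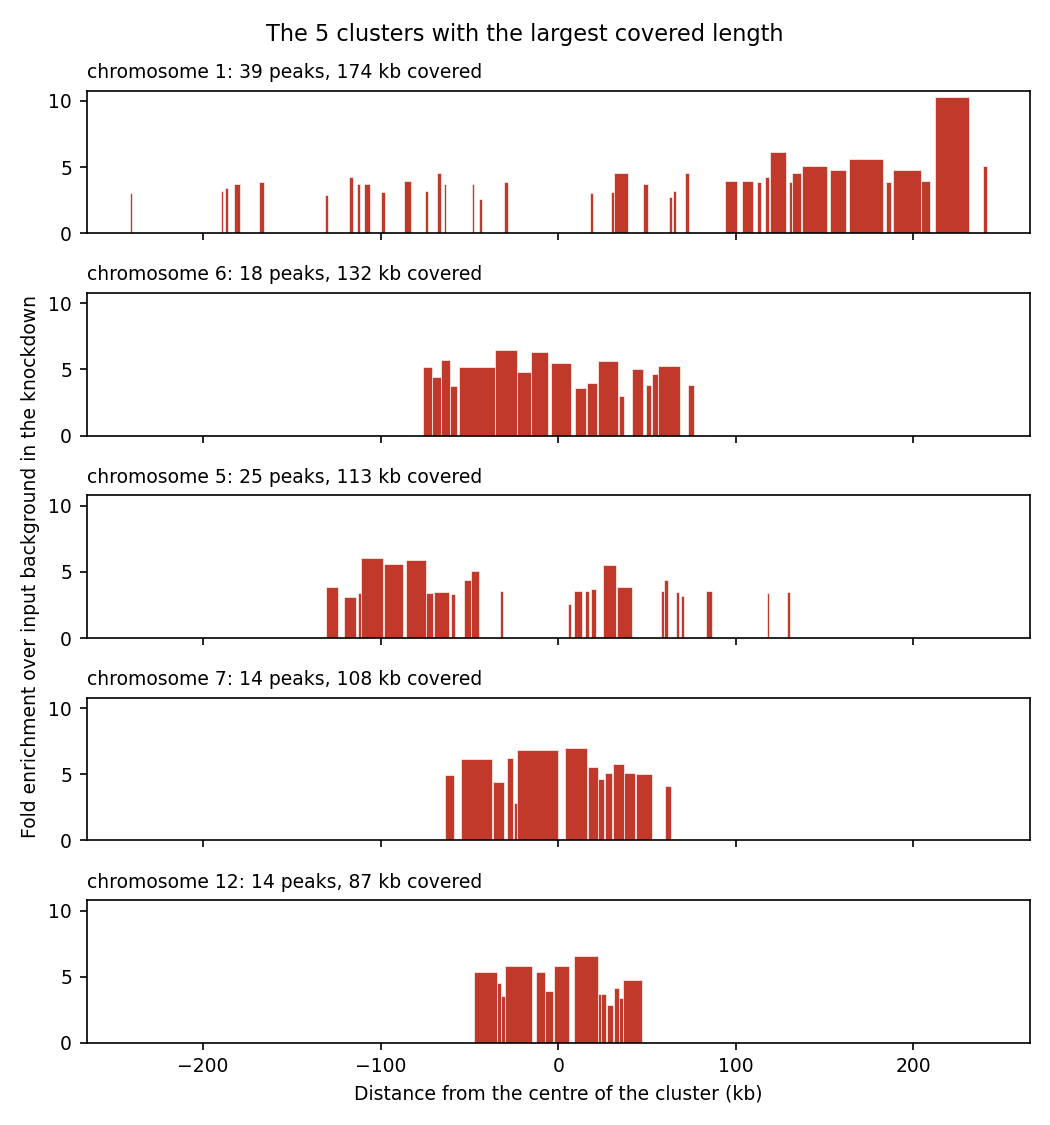
Each panel shows 1 of the 5 clusters of distant peaks with the largest covered length, with every member as a bar from its start to its end in kb from the centre of the cluster (x axis) and its fold enrichment over input background in the knockdown as height (y axis). The peaks on chromosome 1 widen and reach 10.27 towards one end, and those on chromosomes 6, 7 and 12 nearly touch each other.

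The clusters ranked 6 to 10, described after the values were seen, held 65.2 to 85.6 kb of covered length each. They lay on chromosome 2 from 233562992 to 233716750, on chromosome 8 from 121607914 to 121746183, and on chromosome 10 from 5770542 to 5848732. The others lay on chromosome 22 from 19316992 to 19391018 and on chromosome 13 from 103254763 to 103332661. The cluster on chromosome 22 covered 92.5% of its span with 6 peaks, of which 2 had an FDR of 5% or less. Of all 1026 clusters, 49 held a peak with that FDR and 4 held more than 1.

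Chromosomes differed in the share of their knockdown peaks that were distant. The share was 29.0% on chromosome 20 (62 of 214, 22.99 to 35.5%), 25.1% on chromosome 2 (284 of 1133, 22.6 to 27.7%), 19.3% on chromosome 6 (16.7 to 22.1%) and 18.5% on chromosome 5 (16.6 to 20.6%). It was 1.26% on chromosome 19 (14 of 1108, 0.692 to 2.11%) and 3.06% on chromosome X (14 of 458, 1.68 to 5.08%). The median over chromosomes 1 to 22 and X was 9.85%. By the rule, a peak can be distant only where the control list has a gap, so these shares also depend on the control peaks. The control list held 484 peaks on chromosome 20, 2203 on chromosome 2, 1548 on chromosome 19 and 847 on chromosome X. Knockdown peaks overlapped 24.4% of the control peaks on chromosome 20, 27.4% on chromosome 2 and 29.6% on chromosome 6. On chromosomes 5, 19 and X they overlapped 47.7, 47.5 and 36.8%. Over the 23 chromosomes apart from Y, the distant share had a Pearson correlation of -0.446 with this percent (Spearman -0.356). How far the shares follow from the spacing of control peaks, or from how many of these kept a knockdown peak, was not tested. On chromosome Y none of 6 knockdown peaks was distant, a number too small to describe a share. Chromosomes 1, 2 and 5 together held 1032 distant peaks, or 37.9% of them, and 24.6% of all knockdown peaks.

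Distant peaks were weakest by median fold enrichment on 3 of the 4 chromosomes with the largest shares. The median was 3.17 on chromosome 20, 3.23 on chromosome 2 and 3.30 on chromosome 6, the lowest of the 23. It was 3.56 on chromosome 5, close to the median of all distant peaks. The highest medians were 4.14 on chromosome 22 and 3.97 on chromosome 21, where 31 and 25 peaks were distant. Median fold enrichments of the other knockdown peaks were not computed by chromosome. Whether these low and high medians are particular to distant peaks was therefore not tested.

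**Figure D4:**
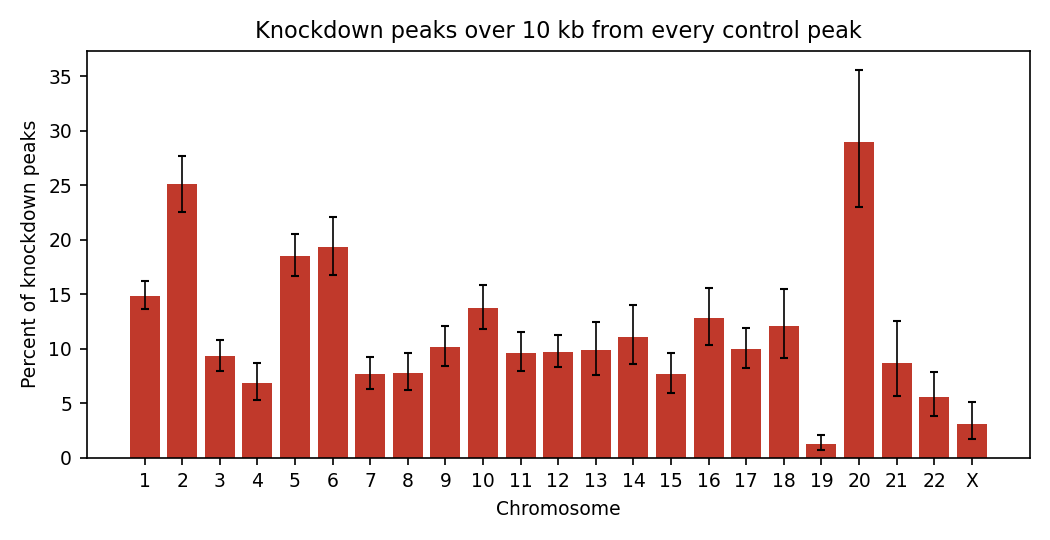
Percent of the knockdown peaks of each chromosome (x axis) that are distant (y axis), with exact 95% binomial intervals as error bars that cover counting error only. Chromosome 20 is highest at 29.0%, followed by chromosome 2 at 25.1%, and chromosome 19 is lowest at 1.26%.

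The 5 widest distant peaks had very different scores. The median score was 277 over the 12 distant peaks with 2000 tags or more and 651 over the 409 knockdown peaks with that many tags. The widest distant peak, on chromosome 11 from 47838623 to 47868905, spanned 30.3 kb with 2980 tags, a fold enrichment of 9.31 and a score of 640.24. The next, on the same chromosome from 93423723 to 93451991, spanned 28.3 kb with 2538 tags and a fold enrichment of 7.41, and its score was 64.95, with an FDR of 87.2%. Another on that chromosome, from 46796237 to 46824274, had a fold enrichment of 6.98 and a score of 73.01. On chromosome 1 the peak from 171523697 to 171551314 had 9.59 and 132.89, and the one from 229616482 to 229641833 had 6.50 and 227.9. All 5 held over 2000 tags, and 4 of them scored below the median of the 12.

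**Figure D5:**
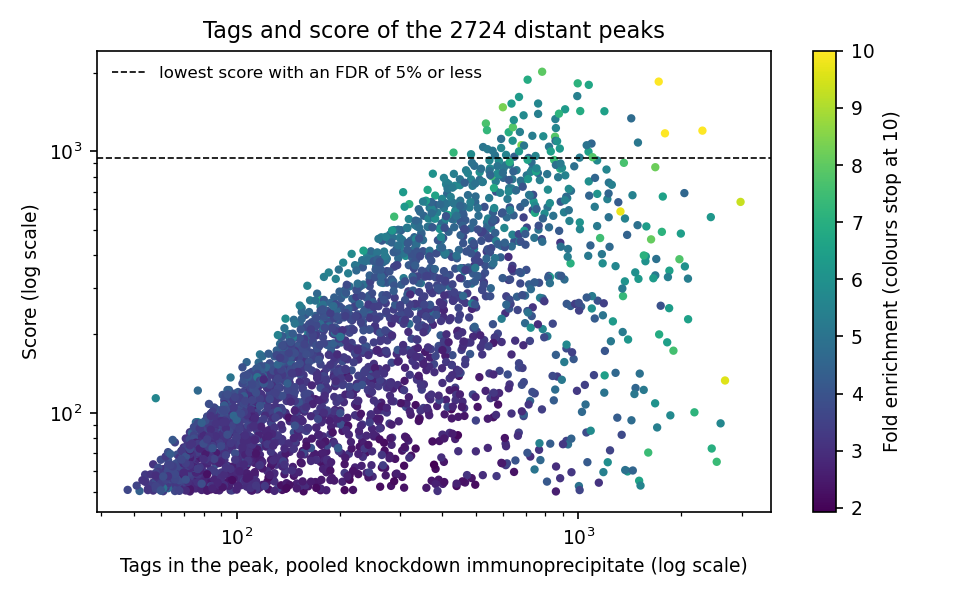
Score of each of the 2724 distant peaks (y axis, log scale) against its tags in the pooled knockdown immunoprecipitate (x axis, log scale), coloured by fold enrichment, with a dashed line at 939.74, the lowest score that had an FDR of 5% or less. Scores rise with tags among peaks of few tags, and above 500 tags they scatter down to near the limit of 50.

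Scores under 100 were less frequent among distant peaks with many tags, but some remained. Of all distant peaks 40.6% scored under 100, and of the 125 with 1000 tags or more 23 did (18.4%). Over the knockdown list the shares were 33.1% of all peaks and 8.28% of those with 1000 tags or more, and over the control list 24.5% and 3.43%. Peaks with 1000 tags or more that also had a fold enrichment of 7 or more scored higher, with medians of 466 for 19 distant peaks, 1371 for 648 knockdown peaks and 1605 for 4426 control peaks. Among these the share under 100 was 10.5% of the distant, 4.01% of the knockdown and 2.62% of the control peaks. In the same order, 3 of the 19, 397 of the 648 and 4108 of the 4426 had an FDR of 5% or less. The lowest score among such control peaks was 50.75, close to the limit of 50 under which no peak is listed. Whether control domains below that limit lay under distant peaks was not tested.

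Applied to the control list, the same rule took 12781 of its 35375 peaks (36.1%, 35.6 to 36.6%), each more than 10 kb from every knockdown peak. Distant peaks were therefore a smaller share of the knockdown list than peaks placed in the same way were of the control list. The 2 shares depend on how many peaks each list holds, and the knockdown list is the shorter one.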

How the data were processed

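H3K36me3 ChIP-seq peak lists of HepG2 cells were used, on hg19 per the submitters' processing notes, which also name Bowtie 1.1.2 and FastQC 0.11.5. MACS 1.4.2 was run on 1 merged immunoprecipitate against 1 merged input per condition, with a p-value limit of 1e-05, fragments of 294 bp and at most 1 tag per position, per the file headers. The deposited tag counts are raw counts per peak. The deposited score takes the log10 of each p-value times minus 10, the deposited fold enrichment is a ratio over the local input background, and the deposited FDR is in percent. The shorter deposited lists held exactly the peaks with an FDR of 5% or less.

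Distances were counted in bases between peak edges. Tag density used filtered tags. Shares carry exact Clopper-Pearson intervals and medians exact binomial rank intervals. Intervals cover counting error only, and peaks are not replicates. Peaks were named by fixed rules: the 10 highest fold enrichments with an FDR of 5% or less, ties included, the 5 widest, the 5 farthest, the 5 on each side of the limit, the 5 largest clusters and the 3 strongest adjacent peaks. The clusters ranked 6 to 10 and the peaks within the FDR over 100 kb away were added after their values were seen. Members, lists and rules were chosen with earlier results of these data known. Results by gene, with the gene lists set for them and the hepatocyte markers of the line, were not computed, since the gene table used here is on GRCh38.p14, another build than the peaks. No peak was assigned to a gene. Calculations used Python 3.11.15, pandas 2.3.3, NumPy 2.4.6, SciPy 1.17.1 and matplotlib 3.10.9, and the distance step was tested on simulated data.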

Additional observations from a re-analysis of the deposited data

How the results depend on the processing

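The distant share of 11.6% was 13.8% with a limit of 5 kb, 8.28% with 20 kb and 4.03% with 50 kb, and 12.5% when measured from the summit. It was 20.7% when only control peaks with an FDR of 5% or less counted, 4.26% among knockdown peaks with that FDR, 7.67% among those with a fold enrichment of 5 or more, 12.6% with a score of 100 or more in both lists, and 9.97% after peaks within 3 kb were merged. The median fold enrichment of 3.54 was 3.84 with that score limit, 3.49 with the stricter control list and 5.99 with the stricter knockdown list. The share of distant peaks with an FDR of 5% or less, 1.95%, was 2.78% and 1.38% in the first 2 of these settings. The share with another distant peak within 50 kb, 82.0%, was 79.0% and 74.8% with limits of 20 and 50 kb, 77.8% with the score limit and 78.8% with the stricter control list. It was 15.1% among the 53 distant peaks that met the FDR, and 71.3% and 85.1% with neighbours counted within 10 and 100 kb. Each limit selects other peaks or other distances by construction. Chromosomes 1 to 22 alone moved none of these 4 results beyond its interval. The share of distant peaks in annotated genes was not run. No paired analysis was possible because the deposited lists pool replicates 1 and 2, so no replicate could be left out either.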

Other observations

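The 5 distant peaks farthest from any control peak were narrow, and their fold enrichments of 3.20 to 4.85 lay on both sides of the distant median of 3.54. Their tag densities ran from 0.727 to 1.63, also on both sides of the median of 0.879. The farthest was on chromosome 9 from 44992860 to 44993508, 6377 kb from the nearest control peak, 0.649 kb wide with 71 tags, a fold enrichment of 3.88 and an FDR of 91.0%. The next, on chromosome 2 from 91827758 to 91829450, had a fold enrichment of 3.20 at 2774 kb. The others were on chromosome 13 from 83672210 to 83673685 (3.83 at 2760 kb), on chromosome 5 from 24785741 to 24787422 (3.42 at 2687 kb) and on chromosome 15 from 20545204 to 20548019 (4.85 at 2288 kb). None of the 21 distant peaks beyond 1000 kb had an FDR of 5% or less, which allows a share of up to 16.1% (exact 95% interval).

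The 3 adjacent peaks with the highest fold enrichment were on chromosome 9 from 2786953 to 2795954 (8.49), on chromosome 5 from 16677849 to 16691429 (8.08) and on chromosome 6 from 144756461 to 144764869 (7.89), at 1.02 to 2.22 kb from a control peak. The highest distant peak without an FDR of 5% or less was on chromosome 3 from 186765560 to 186780605. It had a fold enrichment of 9.72, an FDR of 15.7% and 242 kb to the nearest control peak.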
